A study of Mus musculus with 8 samples.

Results

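The genes described here encode 10 ligands, receptors and receptor partners of vascular endothelial growth factor (VEGF) and angiopoietin-Tie signalling: Tek, Tie1, Angpt1, Angpt2, Vegfa, Vegfb, Kdr, Flt1, Eng and Esm1. They were chosen by symbol, through the RefSeq accession that each array probe carries. All 10 had a probe, 14 probes in all, among 15596 genes with a named probe. Of these 10 genes, 9 were measurable (over the background limit on 4 or more of 8 arrays) and were tested, among 8874 tested genes; Vegfb was not. The animals were 12-week-old females of the inbred mouse strain C57BL/6. The LPS group (4 mice) received 5 mg/kg lipopolysaccharide, a bacterial cell-wall component that triggers systemic inflammation, into the peritoneum. The saline group (4 mice) received saline by the same route. Hearts of both groups were perfused and removed 8 h later, and total RNA from heart pieces was hybridised to 1 array per mouse, read in 1 colour. Between 37.3% and 42.6% of gene probes were above background on the LPS arrays, against 39.7% to 46.9% on the saline arrays.

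VEGF ligands bind receptor tyrosine kinases on endothelial cells: Kdr carries most of the signal, and Flt1 binds the ligand tightly with little kinase output. Angpt1 from cells around the vessel activates Tek, which keeps vessels quiet and sealed, whereas Angpt2 is stored in endothelial cells and can oppose Angpt1 at Tek. Tie1 is the sister receptor that modifies Tek signalling. Eng is an endothelial co-receptor for ligands of the TGF-beta family, and Esm1 is a secreted endothelial proteoglycan induced by VEGF. In the adult heart the muscle cells are a main source of Vegfa and Vegfb, and the dense capillary bed carries the receptors.

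Of the 4 receptor tyrosine kinases, Tek and Flt1 passed the test described below and Tie1 and Kdr did not, so their upstream sequences are set side by side. RefSeq (GRCm38.p6) gave an upstream window for 8 of the 10 genes. Each line holds the 250 bases before the transcript start used in that table, 5′ to 3′ on the strand of the gene, with capitals marking GGAA on either strand, the core letters bound by ETS factors. The window of Tie1 lies before the annotated span of the gene, that of Tek crosses its first base, and those of Flt1 and Kdr lie inside it, since the span begins further upstream.
Tek, chr4:94739039-94739288 (+ strand): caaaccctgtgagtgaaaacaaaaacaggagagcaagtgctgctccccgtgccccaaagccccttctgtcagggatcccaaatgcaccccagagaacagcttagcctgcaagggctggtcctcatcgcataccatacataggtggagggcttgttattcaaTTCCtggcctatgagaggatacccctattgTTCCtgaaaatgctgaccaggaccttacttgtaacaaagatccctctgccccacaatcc
Tie1, chr4:118489850-118490099 (- strand): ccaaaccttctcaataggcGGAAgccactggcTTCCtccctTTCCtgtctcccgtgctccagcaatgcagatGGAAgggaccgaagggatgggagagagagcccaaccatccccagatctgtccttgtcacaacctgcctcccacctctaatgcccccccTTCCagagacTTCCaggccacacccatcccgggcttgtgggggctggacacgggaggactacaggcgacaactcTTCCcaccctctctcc
Flt1, chr5:147726012-147726261 (- strand): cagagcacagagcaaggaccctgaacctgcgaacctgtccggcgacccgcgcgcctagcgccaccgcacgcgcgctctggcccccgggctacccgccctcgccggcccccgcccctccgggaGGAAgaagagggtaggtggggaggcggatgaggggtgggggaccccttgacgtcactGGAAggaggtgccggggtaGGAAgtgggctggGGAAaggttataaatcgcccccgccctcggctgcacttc
Kdr, chr5:75978456-75978705 (- strand): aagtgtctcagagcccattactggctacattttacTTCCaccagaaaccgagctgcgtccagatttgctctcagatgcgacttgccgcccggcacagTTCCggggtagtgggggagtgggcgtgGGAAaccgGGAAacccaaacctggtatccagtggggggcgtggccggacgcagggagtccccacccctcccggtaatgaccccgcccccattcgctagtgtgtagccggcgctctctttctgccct
Counted on both strands, the window of Tek held 2 GGAA cores, that of Tie1 held 7, and those of Flt1 and Kdr held 4 each. Among 32851 such windows of annotated genes 93.4% held at least 1 core and the median was 3. At least 7 cores were present in 3.82% of them and at least 2 in 76.8%. An NF-kB pattern (GGGA, any 4 bases, CC) was found in the window of Kdr and not in those of Tek, Tie1 and Flt1, against 17.6% of all windows. ACGTG, the core of the hypoxia response element, was found in none of these 4 windows and in 16.6% of all windows. The motif AGATAA, searched for its use by endothelial zinc finger factors, was in none of the 4 and in 9.99% of all. GGGCGG, bound by SP and KLF factors, was matched 3 times in the window of Flt1, 2 times in that of Kdr and not in those of Tek and Tie1. At least 3 matches were present in 8.47% of all windows, at least 2 in 16.7% and any match in 32.7%. These matches describe letters only.

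At 8 h after LPS, the angiopoietin receptor Tek, the VEGF receptor Flt1, the ligand Vegfa, the co-receptor Eng and Esm1 were lower than in saline hearts. The Tek antagonist Angpt2 was higher. Tie1, Angpt1 and Kdr did not pass the threshold, an adjusted p of 0.05 (limma's linear model, Benjamini-Hochberg method, whole table). Together, 6 of the 9 tested genes passed it, where 19.5% of all tested genes did. Thus 5 of the 9 tested genes fell, where 9.78% of all tested genes fell, and 1 of 9 rose, where 9.74% of all tested genes rose. Esm1 passed the filter through the saline arrays alone, which favours a fall and a lack of overlap. A filter on all 8 arrays leaves out Esm1 and Kdr. With it 4 of these genes fell and 1 rose, and of 7470 genes 616 fell and 658 rose. The median log2 change of the 9 genes was -0.70 by fitted values and -0.32 with Esm1, dim on all LPS arrays, at its bound, and that of all tested genes was -0.05. Of all calls 49.9% were rises, and 23.6% under median scaling over all gene probes, under which Angpt2 lost its call. In whole-heart RNA, fewer cells of a type and less RNA per cell cannot be told apart. In 5 of the 9 genes (Tek, Vegfa, Kdr, Eng and Esm1) every LPS array was below every saline array, as in 12.3% of all tested genes. Values below are log2 intensities after background correction and quantile normalization, and a change is LPS minus saline on that scale.

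**Figure D1:**
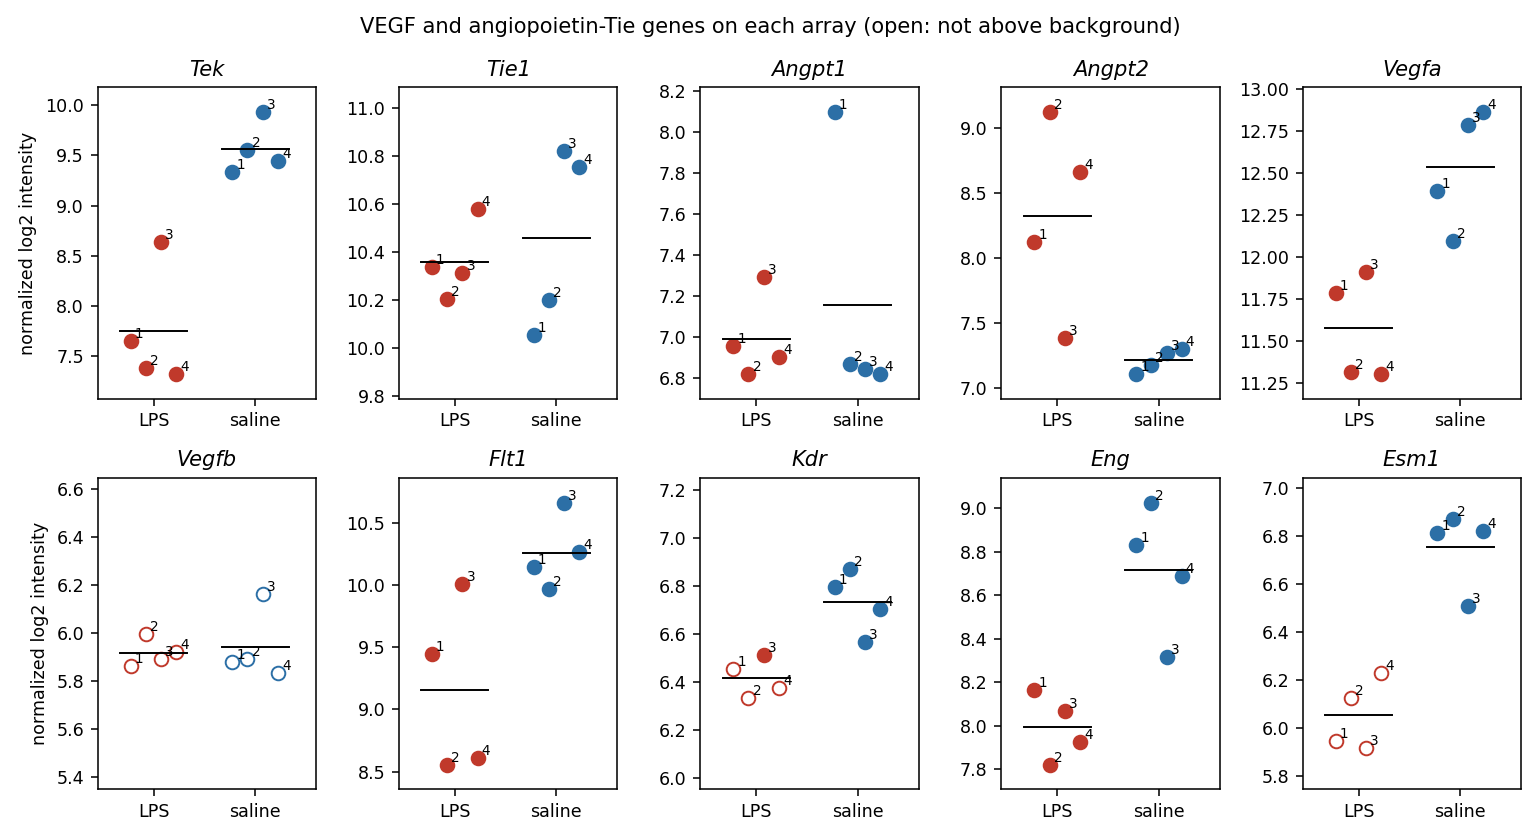
Normalized log2 intensity (vertical axis, its own scale in each panel) of the 10 genes on the 4 LPS and 4 saline arrays; numbers are replicates, lines are group means, and open points are not above background. Tek, Vegfa, Kdr, Eng and Esm1 are lower on every LPS array than on any saline array, a pattern of 12.3% of all tested genes; Angpt2 is higher on every LPS array, and Vegfb is open throughout.

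Among the receptors, Tek had the largest log2 change. Its values were 7.66, 7.39, 8.64 and 7.32 on LPS arrays 1 to 4, against 9.33, 9.55, 9.93 and 9.45 on saline arrays 1 to 4. The groups did not overlap, and LPS 3 lay nearest to saline. As scanned, the spot exceeded its local background by 142, 86, 279 and 63 intensity units on the LPS arrays, against 1308, 830, 772 and 658 on the saline arrays. The log2 change was -1.82 (SE 0.27, adjusted p = 0.00168), so that the LPS level was 28.4% of the saline level. Leaving out any 1 array gave changes from -2.11 to -1.67 with adjusted p from 2.74e-05 to 0.00737.

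Tie1, whose probe was above background on all 8 arrays, did not pass the threshold. It measured 10.34, 10.20, 10.31 and 10.58 on the LPS arrays, against 10.06, 10.20, 10.82 and 10.75 on the saline arrays. The LPS values lay within the range of the saline values. The change was -0.10 (SE 0.19, adjusted p = 0.749), with a 95% interval from -0.52 to 0.32. The change of Tek differed from that of Tie1 by -1.72 on the log2 scale. In an exact 2-sided permutation test over the 70 arrangements of the arrays this gave p = 0.0286, the smallest p that 4 against 4 arrays allow. Adjusted over the 3 pairs of genes compared (ligand pair, Tie pair and VEGF receptor pair) it was 0.0857 and did not pass. The Tie pair alone at this floor could not pass after that adjustment, whatever its size, so the adjusted p decides nothing.

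Of the VEGF receptors, Flt1 fell and Kdr did not pass the threshold. Flt1 measured 9.45, 8.56, 10.01 and 8.61 on the LPS arrays, against 10.15, 9.97, 10.66 and 10.27 on the saline arrays. LPS 3 lay above saline 2, so the groups overlapped by that array. The change was -1.11 (SE 0.31, adjusted p = 0.0326), or 46.5% of the saline level. A dimmer Flt1 probe, above background on all saline arrays and on LPS 3 only, changed by -0.45 (SE 0.13, adjusted p = 0.0396 in the fit over all tested probes). The call of Flt1 ended without LPS 2, LPS 4 or any 1 saline array (adjusted p from 0.0512 to 0.0903), and without LPS 3 its change was -1.39 (adjusted p = 0.00334).

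Kdr was dim, exceeding the background limit on 1 LPS array (LPS 3) and on all 4 saline arrays. It measured 6.45, 6.33, 6.51 and 6.38 on the LPS arrays, against 6.80, 6.87, 6.57 and 6.70 on the saline arrays. The groups did not overlap, but the gap was narrow. The change was -0.32 (SE 0.11, adjusted p = 0.0822; 95% interval -0.57 to -0.06), on a scale that the offset of 50 compresses for dim probes. With an offset of 16 it was -0.49 (adjusted p = 0.0497), and with the mean in place of the median brightness of each spot -0.54 (adjusted p = 0.0241). Across all 28 alternatives that measured it, the adjusted p of Kdr ran from 0.0241 to 0.783. The change of Flt1 minus that of Kdr was -0.79 (exact permutation p = 0.114, adjusted 0.114). This size depended on the processing: it was -0.46 with the mean of the probes of each gene, -0.49 with mean spot intensity and -1.12 under median scaling, with exact adjusted p of 0.114, 0.257 and 0.0857.

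**Figure D2:**
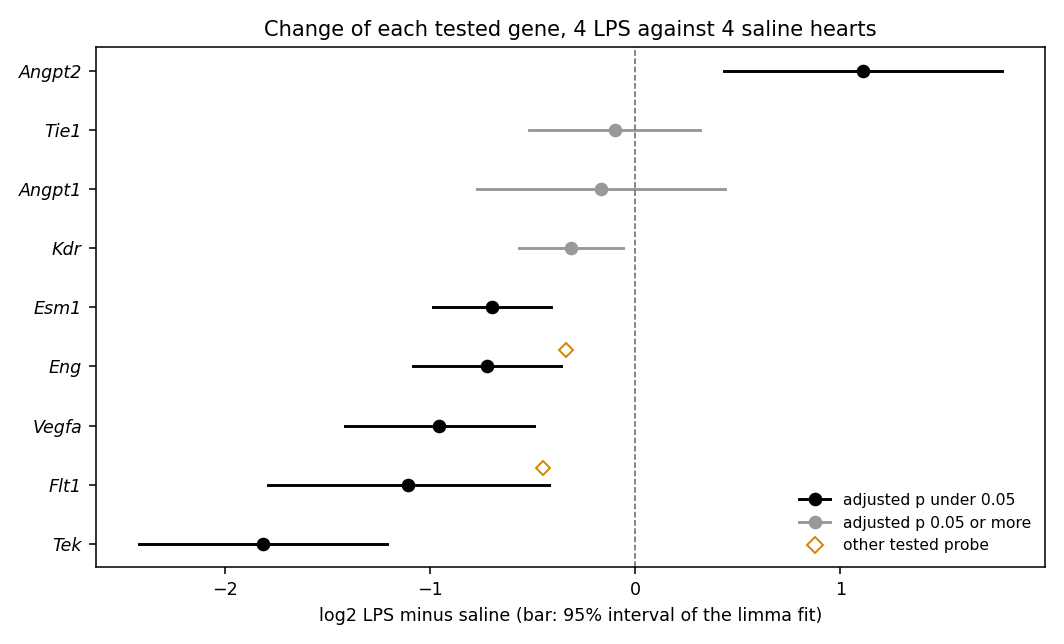
Log2 change, LPS minus saline, of each tested gene (points) with the 95% interval of the limma fit (bars); black marks genes past an adjusted p of 0.05, and orange diamonds are other tested probes. Angpt2 lies at 1.11, Tek at -1.82, and the second probes of Eng and Flt1 lie at -0.34 and -0.45; the Esm1 value is the fitted one, its LPS level being only bounded.

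Of the angiopoietin ligands, Angpt2 rose. It measured 8.13, 9.12, 7.39 and 8.66 on the LPS arrays, against 7.11, 7.18, 7.27 and 7.30 on the saline arrays. Every LPS array was above every saline array, as in 11.2% of all tested genes, but LPS 3 by only a small margin. As scanned, the spot exceeded its local background by 223, 397, 92 and 200 units on the LPS arrays, against 168, 94, 80 and 97 on the saline arrays. Before normalization LPS 3 was thus below saline 1, 2 and 4, and the groups overlapped. The change was 1.11 (SE 0.30, adjusted p = 0.0305), a 2.16-fold higher level. The spread among LPS hearts (SD 0.75, n = 4) was larger than among saline hearts (SD 0.09, n = 4). A second Angpt2 probe was not above background on any array. Dropping LPS 1, 2 or 4 or any 1 saline array ended the call (adjusted p from 0.0503 to 0.0859), and without LPS 3 the change was 1.42 (adjusted p = 0.00128). It also ended under median scaling of all gene probes (0.81, adjusted p = 0.0894), which moved the median change of all genes to -0.35.

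Angpt1, the Tek agonist, did not pass the threshold. It measured 6.96, 6.82, 7.29 and 6.90 on the LPS arrays, against 8.10, 6.87, 6.84 and 6.82 on the saline arrays. Saline 1 stood apart, and the other 7 arrays overlapped. The second Angpt1 probe was above background on saline 1 only, with a signal over local background of 9 to 16 units on the LPS arrays, and of 55 units on saline 1 and 4 to 8 units on the other saline arrays. The change of the brighter probe was -0.17 (SE 0.27, adjusted p = 0.71; 95% interval -0.77 to 0.44). Leaving out 1 array moved it between -0.28 and 0.15, the positive value arising without saline 1. Angpt2 minus Angpt1 changed by 1.28 within arrays (exact permutation p = 0.114, adjusted 0.114). Without LPS 3, the LPS array with Angpt2 nearest to saline, it changed by 1.69 (exact adjusted p = 0.0286, the smallest possible there). Leaving out any other 1 array gave exact adjusted p from 0.114 to 0.229.

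Vegfa, the principal VEGF ligand, was bright on all arrays and fell. It measured 11.79, 11.32, 11.91 and 11.30 on the LPS arrays, against 12.39, 12.09, 12.78 and 12.86 on the saline arrays. The groups did not overlap. The change was -0.95 (SE 0.21, adjusted p = 0.011), or 51.6% of the saline level, and it passed without any 1 array (adjusted p from 0.00661 to 0.0385). Vegfb, a ligand of Flt1, had a signal between -1 and 4 intensity units over local background on the LPS arrays and between -2 and 10 units on the saline arrays. No array exceeded its limit, so this probe gave no measure of Vegfb, and Vegfa could not be set against it.

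Eng fell by its brighter probe. That probe measured 8.16, 7.82, 8.07 and 7.93 on the LPS arrays, against 8.83, 9.03, 8.32 and 8.69 on the saline arrays. The groups did not overlap, and the change was -0.72 (SE 0.16, adjusted p = 0.0129), or 60.7% of the saline level. The second Eng probe, also above background on all 8 arrays, measured 8.22, 8.16, 8.43 and 7.50 on the LPS arrays, against 7.81, 8.73, 8.31 and 8.80 on the saline arrays. These values overlapped, with a change of -0.34 (SE 0.25, adjusted p = 0.396 in the fit over all tested probes). The mean of the Eng probes changed by -0.53 (adjusted p = 0.0565), which did not pass.

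Esm1 was above background on all 4 saline arrays and on no LPS array. It measured 5.95, 6.13, 5.92 and 6.23 on the LPS arrays, against 6.81, 6.87, 6.51 and 6.82 on the saline arrays. The groups did not overlap. Because the LPS level lay below the measurable range, the result is a bound: Esm1 was at least 1.13-fold lower with LPS. The adjusted p of 0.00523 is that of the limma fit to the values as read, and the bound itself was not tested. The bound sets the mean of the saline arrays against the lowest signal above background on each LPS array. The call ended under median scaling over the tested probes (adjusted p = 0.121). Further changes printed for Esm1 are fitted values and do not measure its size.

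The 4 LPS hearts differed among themselves. Relative to the saline mean, Tek was at -1.91, -2.18, -0.93 and -2.24 on LPS 1 to 4, Flt1 at -0.82, -1.70, -0.25 and -1.65, and Vegfa at -0.75, -1.22, -0.62 and -1.23. Angpt2 was at 0.91, 1.91, 0.17 and 1.45. LPS 3 was thus the nearest to saline for Tek, Flt1, Vegfa, Kdr and Angpt2, but not for Eng (-0.65 on LPS 3, -0.55 on LPS 1). Esm1 was below background on all 4 LPS arrays, which therefore have no order. Without LPS 3 and saline 1 together, an omission chosen after the data were seen, the same counts of 1 higher and 5 lower were obtained.

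**Figure D3:**
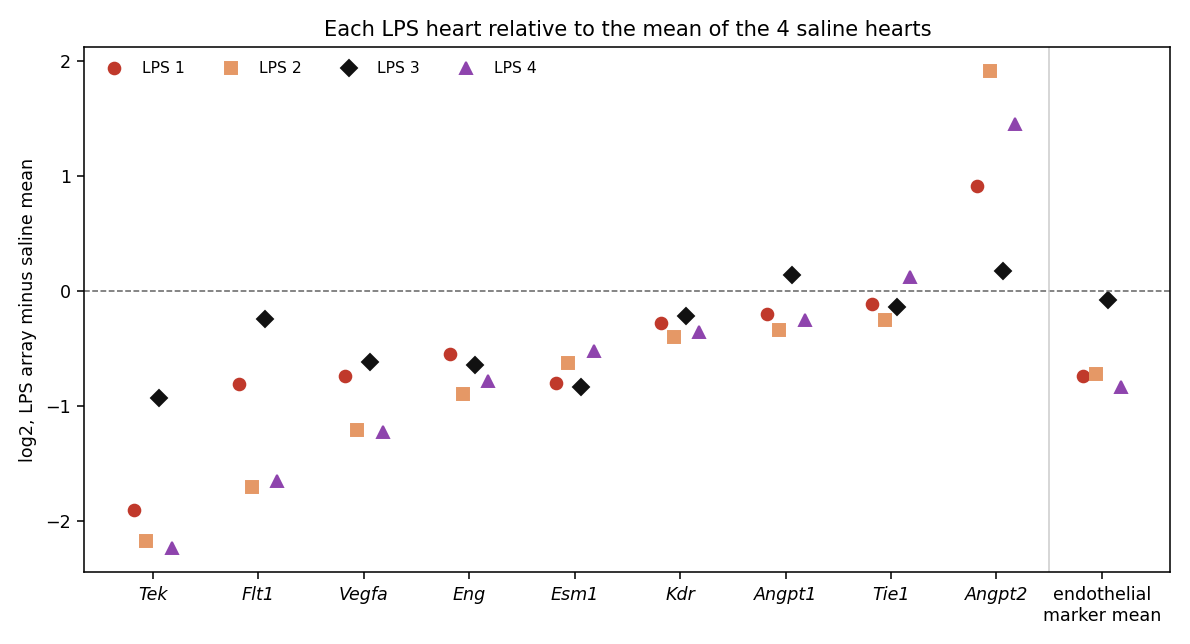
Log2 intensity of each LPS array minus the mean of the 4 saline arrays (vertical axis) for the 9 tested genes and for the mean of 16 endothelial markers. The black diamonds (LPS 3) lie nearest to zero for Tek, Flt1, Vegfa, Angpt2 and the marker mean; the Esm1 points are all below background and have no order.

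Endothelial transcripts as a whole were set beside these genes. Of 24 listed endothelial markers 16 were tested, 3 fell (Egfl7, Sox18 and Fli1), none rose and 13 did not pass, with a median log2 change of -0.60. Over all tested genes 9.78% fell and 9.74% rose. The mean log2 level of the 16 markers was 9.34, 9.36, 9.999 and 9.24 on the LPS arrays, against 9.87, 10.13, 10.27 and 10.06 on the saline arrays. LPS 3 lay within the saline range, and the difference of -0.60 gave an exact permutation p of 0.0571. Egfl7, a secreted endothelial protein, fell by 2.13 (SE 0.31, adjusted p = 0.00156). Pecam1 and Cdh5, junction proteins of endothelium, changed by -0.85 (adjusted p = 0.0824) and -0.28 (adjusted p = 0.248).

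Relative to this marker mean on the same array, Tek was still lower in LPS hearts (log2 difference -1.22), and Angpt2 was higher (1.71). For each of them the groups did not overlap (exact permutation p = 0.0286, the smallest possible), but adjusted over the 7 genes compared the p was 0.1. Tek and Angpt2 alone at this floor could not pass after that adjustment, however large their differences. The adjusted p therefore decides nothing about them. Relative to the marker mean, Eng differed by -0.12 (exact permutation p = 0.629) and Flt1 by -0.51 (exact permutation p = 0.143). Tie1 and Kdr differed by 0.50 (exact permutation p = 0.114) and 0.28 (exact permutation p = 0.229). Adjusted p of these 4 ran from 0.25 to 0.686 in the same exact test. Esm1, the other gene of the 7, has only a bound in LPS hearts and is given no value here.

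Other cell types also moved with the groups, and their part in the results was not tested. Their counts stand beside the 9.74% of all tested genes that rose and the 9.78% that fell. The summed intensity of 5 tested neutrophil markers was 1800 to 2440 in LPS hearts and 388 to 861 in saline hearts, 4 of them rose, and S100a8, a neutrophil calcium-binding protein, rose by 3.12 (SE 0.36, adjusted p = 0.000391). Ly6g, Cxcr2, Mmp8, Ngp and Camp of that list of 10 did not reach the filter, and Csf3r, counted as a rise, passed it through the LPS arrays alone. Of 9 tested pericyte and smooth muscle markers 5 fell and none rose, and Notch3 fell by 0.80 (SE 0.16, adjusted p = 0.00696). Their summed intensities were 10800 to 18600 in LPS hearts and 22400 to 27400 in saline hearts. These sums rest mostly on Des and Abcc9, with saline means of 13.75 and 12.69 on the log2 scale, against 10.83 for Notch3, the next brightest. Des itself did not pass (-0.66, adjusted p = 0.0665). Of 8 fibroblast markers 2 fell and 1 rose, with a median of -0.61. Lum fell by 1.00 (SE 0.25, adjusted p = 0.022). Dcn, a bright matrix proteoglycan gene, rose by 0.48 (SE 0.13, adjusted p = 0.0281) and was the only marker of the 8 with a positive change, while the sums, to which bright genes add most, were 22100 to 27200 in LPS hearts and 18000 to 23500 in saline hearts.

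All 10 listed ventricular muscle markers were measurable and 1, Ckm (muscle creatine kinase), fell (-0.48, SE 0.15, adjusted p = 0.0465). The changes of all 10 were negative (median -0.47), and the sums, without overlap, were 176000 to 233000 in LPS hearts and 236000 to 323000 in saline hearts. Of 6 monocyte and macrophage markers 2 fell, Lyz2 (-1.18, SE 0.25, adjusted p = 0.00938) and C1qa (-0.89, SE 0.16, adjusted p = 0.00505). Mrc1 (-0.38), Cd163 (-0.07), Adgre1 (-0.02) and C1qb (-0.02) did not pass. Sums of the 6, again without overlap, were 7330 to 8490 in LPS hearts and 8820 to 10500 in saline hearts. Of 5 lymphatic markers Pdpn rose (1.00, SE 0.15, adjusted p = 0.00183) and Ccl21a fell (-0.93, SE 0.21, adjusted p = 0.0136). Prox1 (-0.34), Lyve1 (-0.21) and Reln (-0.15) did not pass. The lymphatic sums were 1000 to 1430 in LPS hearts and 1380 to 1690 in saline hearts. Of 4 erythroid markers Hbb-bt fell (-1.24, SE 0.37, adjusted p = 0.044), with sums of 10800 to 27700 and 17800 to 50000 in LPS and saline hearts. None of 4 platelet markers passed. Ppbp reached the filter through the saline arrays alone, which favours a fall, and its bound was at least 1.49-fold lower in LPS hearts. The adjusted p of Ppbp, 0.0613, is that of the fitted change, and the bound was not tested. The platelet sums were 537 to 898 in LPS hearts and 792 to 1160 in saline hearts. Atrial markers varied between hearts within each group, with sums of 212 to 60100 in LPS hearts and 223 to 74800 in saline hearts. Myl4 changed by 1.71 (SE 1.78, adjusted p = 0.54). The 2 tested adipocyte markers summed to 170 to 2240 in LPS hearts and 160 to 623 in saline hearts, Adipoq changing by 1.59 (SE 0.68, adjusted p = 0.137). With the atrial mean as a covariate, the same counts of 1 gene higher and 5 lower were obtained, Tek changing by -1.85 (adjusted p = 0.00337).

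The wider pathway was read from 7 lists holding 112 genes besides the 10. Of 81 tested, 17 rose, 12 fell and 52 did not pass, with a median log2 change of -0.01 (-0.0033 with genes dim in a whole group at their bounds). Over all tested genes 9.74% rose and 9.78% fell, shares to set beside the counts of each list below. Pgf and Sphk1, counted as rises, passed the filter through the LPS arrays alone, which favours a rise. In the VEGF family, 4 further genes were tested: Pgf rose, and Nrp1 and Vegfc fell. Pgf (placental growth factor), a ligand of Flt1, was above background on all LPS arrays and on no saline array, a rise of at least 2.22-fold. Its adjusted p of 0.00371 is that of the fitted change, and the bound was not tested. Pgf measured 8.21, 7.49, 6.92 and 7.91 on the LPS arrays, against 6.26, 6.29, 6.21 and 6.28 on the saline arrays, again least on LPS 3. Nrp1, a VEGF co-receptor, fell by 1.14 (SE 0.15, adjusted p = 0.000849; a second probe gave -0.68, adjusted p = 0.159). Vegfc, the main ligand of the lymphatic receptor Flt4, fell by 0.73 (SE 0.14, adjusted p = 0.00701).

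Among 5 further angiopoietin-Tie genes, Ptprb and Angptl2 fell and none rose. Ptprb, the endothelial phosphatase that removes phosphate from Tek, measured 8.25, 7.84, 8.95 and 7.56 on the LPS arrays, against 10.22, 10.64, 10.18 and 9.998 on the saline arrays. The groups were well apart. It fell by 2.11 (SE 0.27, adjusted p = 0.000705), and a second probe gave -0.87 (adjusted p = 0.0101). Angptl2, a secreted angiopoietin-like protein, fell by 1.37 (SE 0.20, adjusted p = 0.00145). Foxo1, a transcription factor restrained by Tek signalling, changed by 0.39 (adjusted p = 0.251).

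In the endoglin-ALK1 branch 3 of 12 further genes rose and 1 fell, with a median of -0.04. The gene that fell was Acvrl1, which encodes the receptor ALK1 that works with Eng (-0.75, SE 0.19, adjusted p = 0.0236). Smad1, a transducer of BMP signals, rose by 1.47 (SE 0.19, adjusted p = 0.000758), Tmem100, an ALK1 target of endothelium, by 1.19 (SE 0.24, adjusted p = 0.00814), and Tgfbr2, the type II TGF-beta receptor, by 0.50 (SE 0.14, adjusted p = 0.0355). Acvrl1 lost its call when LPS 1 or 4 or saline 1, 2 or 3 was dropped (adjusted p from 0.0553 to 0.0699). Tgfbr2 lost it when LPS 2, 3 or 4 or saline 1, 2 or 3 was dropped (0.0609 to 0.103), and another Tgfbr2 probe gave 0.52 (adjusted p = 0.0716).

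Of 21 tested genes of the VEGF signal relay and its feedback 5 rose and none fell (median 0.14). Rcan1, a calcineurin inhibitor induced by VEGF in endothelium, measured 13.79, 13.17, 11.25 and 13.45 on the LPS arrays, against 9.61, 9.97, 9.74 and 10.12 on the saline arrays. It rose by 3.06 (SE 0.46, adjusted p = 0.00165), least on LPS 3. A second probe, above background on the 4 LPS arrays and on no saline array, was at least 6.97-fold higher. Its adjusted p of 0.00449 is that of the fitted change, and the bound was not tested. Spry4, a feedback inhibitor of receptor tyrosine kinases, rose by 1.45 (SE 0.18, adjusted p = 0.000547) and Map2k1, the kinase MEK1, by 1.15 (SE 0.22, adjusted p = 0.0053). Nos3, the endothelial nitric oxide synthase, changed by -0.54 (adjusted p = 0.275).

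Genes of tip cells and angiogenic endothelium went in both directions. Of 15 besides Esm1 and Angpt2, 3 rose and 5 fell. Aplnr, the apelin receptor, fell by 2.04 (SE 0.24, adjusted p = 0.000399), Nid1, a basement membrane glycoprotein, by 1.07 (SE 0.19, adjusted p = 0.00399), and Pdgfb, which recruits pericytes, by 0.97 (SE 0.27, adjusted p = 0.0308). The basement membrane collagen chains Col4a1 and Col4a2 rose by 1.12 (SE 0.20, adjusted p = 0.00422) and 0.99 (SE 0.31, adjusted p = 0.048). Dll4, a Notch ligand of tip cells, changed by -0.34 (adjusted p = 0.149). Pdgfb lost its call when LPS 2 or 4 or saline 2, 3 or 4 was dropped (adjusted p from 0.0642 to 0.075), and Col4a2 when any array but LPS 1 was (0.0528 to 0.123).

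Vegfa is a classical target of hypoxia-inducible factors, and of 16 other hypoxia genes 4 rose and 1 fell (median 0.23). The remaining 11 did not pass, with changes from -0.69 (Egln3, adjusted p = 0.0572) to 1.05 (Ddit4, adjusted p = 0.0601). Hif1a, the regulated alpha subunit, rose by 1.16 (SE 0.27, adjusted p = 0.0161), and Ndrg1, a hypoxia-induced gene, by 1.21 (SE 0.19, adjusted p = 0.00222). Of the prolyl hydroxylases that mark the factor for destruction, Egln2 rose by 0.82 (SE 0.18, adjusted p = 0.0105) and Egln1 fell by 0.47 (SE 0.14, adjusted p = 0.0393). Without LPS 2 the adjusted p of Hif1a was 0.0526, and Egln1 lost its call when any array but LPS 3 was dropped (0.0687 to 0.097). Both other Egln1 probes gave -0.54 (adjusted p = 0.0395) and -0.53 (adjusted p = 0.014).

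Of 11 other endothelial growth factors and inhibitors 2 rose and 2 fell (median 0.30). Adamts1, a matrix protease that can hold back VEGF, rose by 2.20 (SE 0.32, adjusted p = 0.0015; another probe 0.89, adjusted p = 0.032), and Sema3f, a neuropilin ligand, by 1.59 (SE 0.16, adjusted p = 0.000178). Thbs2, an antiangiogenic matrix protein, fell by 1.00 (SE 0.18, adjusted p = 0.00437; another probe -0.59, adjusted p = 0.0121), as did Pdgfb.

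**Figure D4:**
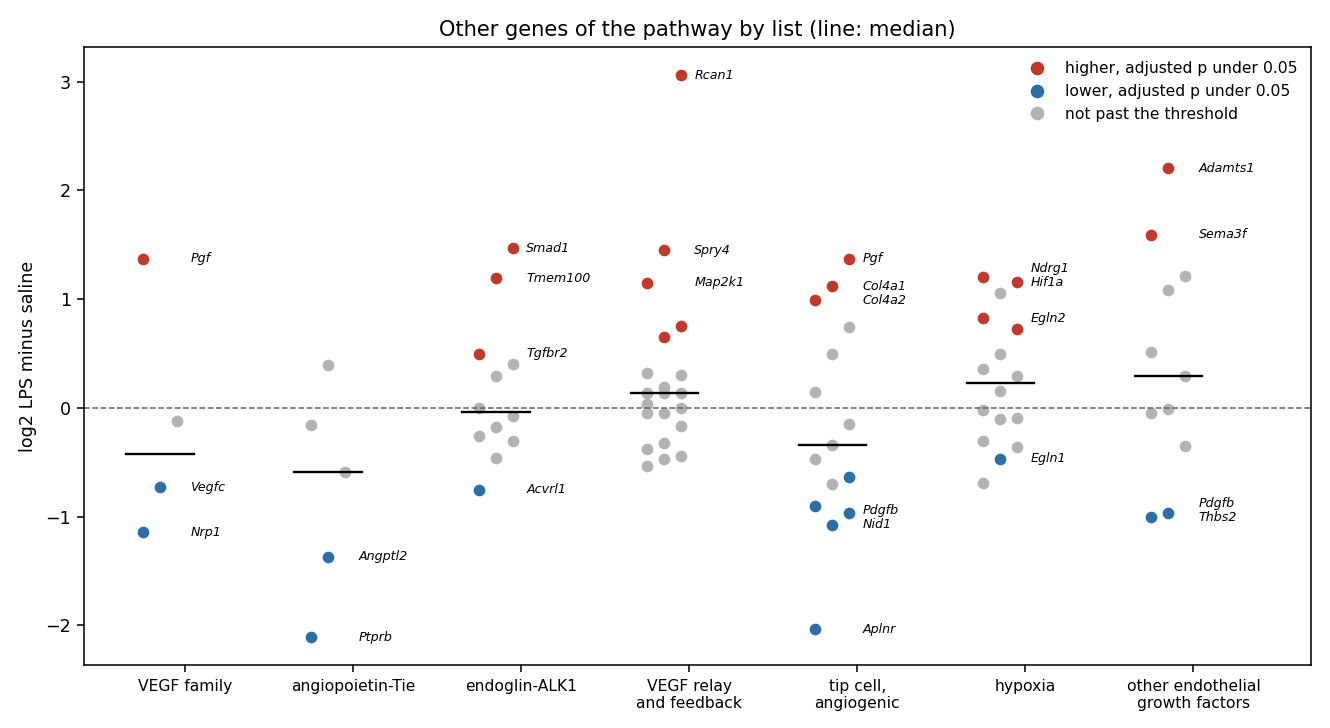
Log2 change, LPS minus saline, of each tested pathway gene other than the 10 described, by list; red and blue points passed an adjusted p of 0.05 and horizontal lines are list medians. Rcan1 lies highest at 3.06, and Ptprb (-2.11) and Aplnr (-2.04) lie lowest; Pdgfb and Pgf belong to more than 1 list, and fitted values are drawn for Pgf, Sphk1 and Dok2, each dim in a whole group.

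The genes whose levels over the 8 arrays most resembled Tek were Fbxw7 (Pearson r = 0.994), Tcf15 (r = 0.99) and Rbm38 (r = 0.989), with log2 changes of -0.92, -3.03 and -1.43. Those most like Angpt2 were Plekhm1 (r = 0.995), Togaram2 (r = 0.983) and Dtna (r = 0.977), with changes of 0.76, 1.06 and 0.67. These correlations span both treatments and are descriptions of 8 arrays, highest among 8874 genes.

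Scan day, slide series and a redip mark on 4 arrays, of unstated meaning, partly coincided with the groups. The first scan day held LPS 2 to 4 and saline 3 and 4, the second LPS 1 and saline 2, and the third saline 1. With scan day as a block, 4 of the 10 genes fell and none rose, Flt1 (adjusted p = 0.0808) and Angpt2 (adjusted p = 0.0931) losing their calls. Within the first day the changes were -1.91 for Tek (adjusted p = 0.0587), -1.31 for Vegfa (adjusted p = 0.0311), -1.41 for Flt1 (adjusted p = 0.128), -0.56 for Eng (adjusted p = 0.109), -0.57 for Esm1 (adjusted p = 0.104) and 1.11 for Angpt2 (adjusted p = 0.221). The second day's pair, with no replicate, gave -1.90 for Tek, -0.31 for Vegfa, -0.52 for Flt1, -0.86 for Eng, -0.92 for Esm1 and 0.95 for Angpt2. All 6 thus had the same sign on both days.

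The first slide series held LPS arrays only, so that a block for the series rests on LPS 1 against saline. It left Tek (-1.91, adjusted p = 0.0357) and Esm1 (-0.80, adjusted p = 0.0474) past the threshold. Within the second series Tek (-1.91, adjusted p = 0.00575) and Angpt2 (0.91, adjusted p = 0.0268) passed. The 4 arrays with the redip mark (2 per group) gave 5 genes lower and 1 higher, with Tek at -2.15 and Angpt2 at 1.65. The 4 without it, which include LPS 3, gave none of either, with Tek at -1.49 (adjusted p = 0.212) and Angpt2 at 0.57 (adjusted p = 0.524).

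**Figure D5:**
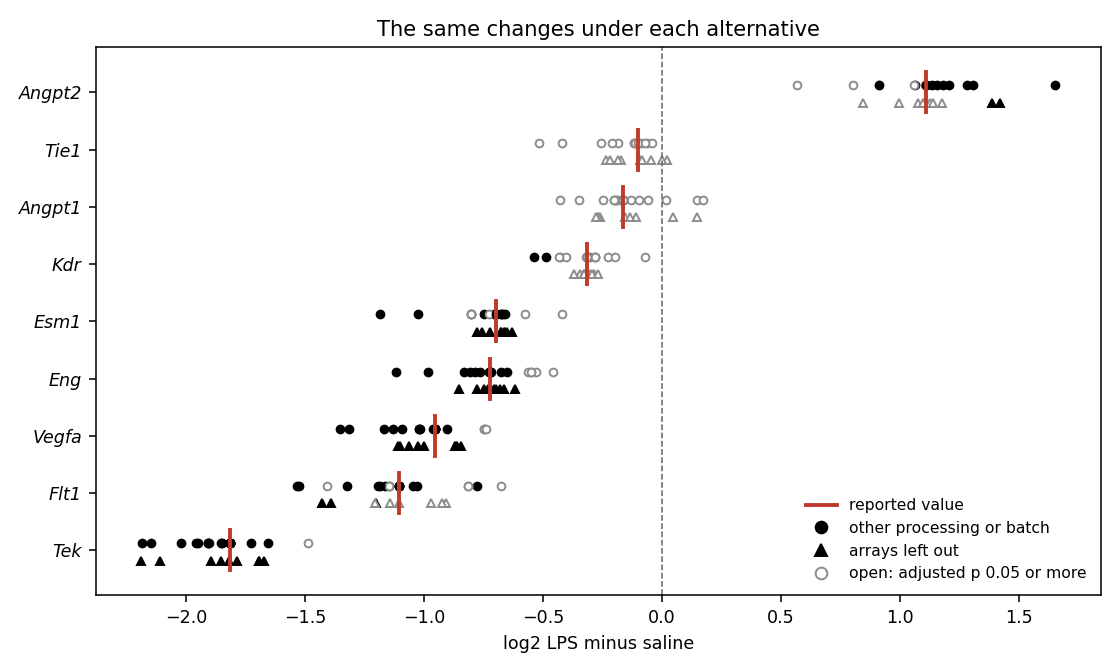
Log2 change, LPS minus saline, of each tested gene as reported (red line) and under each alternative (circles: other processing or batch; triangles: arrays left out); filled symbols passed an adjusted p of 0.05. Tek stays between -2.19 and -1.49 and Angpt2 between 0.57 and 1.65. Tie1 runs from -0.52 to 0.02, mostly below zero, and Angpt1 from -0.43 to 0.17, with every symbol of both open.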

How the data were processed

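Per the file headers, the intensity of each spot and of its surroundings at 635 nm was deposited as exported by GenePix Pro 4.1.1.4 (GenePix 4000B scanner, gain 650, pixels of 5 µm) without normalization. The deposited table of processed values was not used, since 0 of its probe names matched the scanner files. Spot medians were corrected for background with normexp (offset 50), taken to log2 and quantile normalized with limma 3.58.1 in R 4.3.3, spots marked bad being left out. The background limit of an array was the 0.95 quantile of its 94 negative controls, recognised by their spot names. Limits ran from 25.9 to 40.5 intensity units, and the median gene probe was over local background by 12 to 18 units (LPS) and 15 to 32 units (saline). Of 35078 gene probes, 23017 matched 1 gene symbol through RefSeq accessions (GRCm38.p6). Probes above the limit on at least 4 of 8 arrays were kept (14914, with or without a gene name). The main fit held the brightest kept probe of each of 8874 genes, together with the 3249 kept probes that had no name. The fit over all tested probes held all 14914.

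The groups were compared by limma over the whole table, with Benjamini-Hochberg adjustment. The 8 arrays are 8 mice; their number limits the precision. Fits leaving out an array kept the normalization of all 8. The fit was tested on simulated data. The members and lists were chosen with earlier results of these data known. Named genes are the 10 members, up to 3 rises and 3 falls per pathway list, by size, the smallest p of each marker list, and the 3 genes most correlated with the largest rise and fall. Dcn, Sox18, Fli1, Pecam1, Cdh5, Foxo1, Nos3 and Dll4 were added after their values were seen. So were Ccl21a, Prox1, Lyve1, Reln, Lyz2, C1qb, Cd163, Adgre1, Mrc1, Csf3r, Sphk1, Des, Abcc9, Egln3 and Ddit4. The alternatives were background correction, spot measure, normalization, filter, probe choice, prior, array weights, batches, replicate number, an atrial covariate and omitted arrays. Same-numbered LPS and saline arrays had deviations with correlations of 0.0821, -0.14, 0.092 and -0.0788, which showed no clear pairing by number. The best saline match had the same number for LPS 1 and LPS 3, and another for LPS 2 and LPS 4. A weak pairing could not be seen this way.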

Additional observations from a re-analysis of the deposited data

Results flagged for a closer look

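Of 108 groups of 4 arrays checked, 8 held an array set apart from the other 3 by a gap beyond the critical value of Dixon, where chance gives about 5%. Angpt1 was 8.10 on saline 1, against 6.82 to 6.87 on the other saline arrays. Through it, Angpt2 minus Angpt1 was -0.99 on saline 1, against 0.31 to 0.48. Esm1 was 6.51 on saline 3, against 6.81 to 6.87. Acvrl1 was 8.05 on saline 4, against 8.62 to 8.66. On LPS 3, Spry4 was 9.21, against 9.65 to 9.74 on the other LPS arrays, and Map2k1 was 9.96, against 10.84 to 10.99. Aplnr was 6.93 on LPS 1, against 6.60 to 6.65. The atrial light chain Myl4 was 7.23 on LPS 4, against 13.83 to 14.74 on the other LPS arrays.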

How the results depend on the processing

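None of the 6 genes with a call changed sign under any of the 29 alternatives (28 for Esm1, which the filter on all 8 arrays leaves out); Tie1 and Angpt1, without a call, did in 1 and 5 of them. The main counts were 1 of the 10 genes higher and 5 lower, 17 and 12 of the other pathway genes, and 864 and 868 of all tested genes. No gene of the 10 was higher under median scaling over all gene probes, without the dim-probe filter, with scan day or slide series as a block, within the first scan day and on arrays without the redip mark (0 in each). With slide series as a block 2 were lower, and 489 and 269 of all genes were higher and lower. Within the first scan day 1 was lower, with 6 and 5 pathway genes and 289 and 156 of all genes higher and lower. Within the second slide series 1 was lower, with 7 pathway genes lower and 543 and 278 of all genes higher and lower. Arrays without the redip mark, which are 4, gave 0 lower, 0 and 0 pathway genes, and 69 and 3 of all genes. Median scaling over all gene probes gave 8 pathway genes and 347 genes higher, 23.6% of calls being higher in place of 49.9%, with a median change of -0.35. Under cyclic loess 58% of calls were higher, within the first scan day 64.9%, with slide series as a block 64.5% and within the second series 66.1%. The mean spot intensity gave 20 pathway genes lower. Fewer arrays enter the within-batch fits; the cause of the other shifts was not tested. Leaving out 1 array gave 0 to 1 of the 10 genes higher and 4 to 5 lower, 621 to 953 genes higher and 483 (without LPS 2) to 1058 (without LPS 3) lower, with 495 without LPS 4 and 518 without saline 2. It gave Angpt2 minus Angpt1 0.93 to 1.69, Tek minus Tie1 -2.03 to -1.50 and Flt1 minus Kdr -1.04 to -0.60, all 3 past an exact adjusted p of 0.05 only without LPS 3 (0.0286 each). That value is the smallest possible there, and LPS 3 was the LPS array nearest to saline for Tek, Flt1 and Angpt2. With the replicate block 1 of the 10 genes was higher and 5 lower, 17 and 12 pathway genes, and 788 and 740 of all genes; Tek then had an adjusted p of 0.000932, and no call of the 10 changed. Of 24 named pathway genes with a call, 18 passed without each array in turn, 17 passed under median scaling and none changed sign. The deposited value table could not be run as an alternative, its probes having no names here. Brightness limits Kdr, Esm1 and Vegfb.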
